A study of Mus musculus with 40 samples.

Results

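The genes described here are 10 transcription regulators known for holding back or timing differentiation: Id1, Id2, Id3 and Id4, the bHLH (basic helix-loop-helix) repressor genes Hes1, Hes5, Hes6 and Hey1, and the SoxC genes Sox4 and Sox11. They were taken by name from a count table of 39056 gene identifiers, and all 10 were among the 15135 genes with enough reads to test. Earlier results of these data were known when the genes were chosen. The libraries are bulk RNA sequencing of developing oligodendrocytes of wild-type mice. Progenitors were immunopanned, that is, captured on antibody-coated dishes, from the cortices of pups aged 6 days (the sample labels give an age of 6 to 7 days), passaged 2 times, and left to differentiate for 12 to 14 h before plates were assigned at random; the sample labels give the tissue as whole brain. Untreated cells and cells given interferon-gamma (IFN-gamma, 200 U per ml), an inflammatory cytokine, were collected after 1, 8, 24 and 48 h. Cells given thapsigargin (200 uM as labelled), which blocks the calcium pump of the endoplasmic reticulum (ER) and causes ER stress, were collected after 1 and 8 h. Each of these 10 groups held 4 libraries. The labels do not say whether the 4 came from separate cultures or litters, so the tests measure the spread between libraries, which may be technical. The cells are a cultured, purified population studied away from axons.

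Id proteins have a helix-loop-helix domain but no DNA-binding region. They pair with E proteins and with lineage factors such as Olig1 and Olig2 and keep them off DNA, and Id genes are classic targets of bone morphogenetic protein (BMP) signalling through SMAD factors, a pathway known to oppose oligodendrocyte differentiation. Hes1, Hes5 and Hey1 are repressors switched on by Notch and work with Groucho/TLE corepressors, whereas Hes6 is best known as an antagonist of Hes1. Sox4 and Sox11 are closely related factors of immature neural cells, and Sox4 has been linked to Hes5 in oligodendrocyte precursors.

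Libraries held 13165483 to 22651092 reads on genes. IFN-gamma 1 h replicate 2 stood apart with 28.3% of reads on ribosomal-RNA-like genes, against 0.583 to 9.67% in the other 39, and 10 libraries had under 50 CPM (read counts scaled to a common library size) summed over 3 Y-linked genes, 2 of them thapsigargin, 8 IFN-gamma and none untreated. The treatments showed in known responders: Irf1, an interferon target, averaged 1018 CPM with IFN-gamma at 8 h against 24.5 in untreated cells, and Ddit3, an ER stress gene, 559 CPM with thapsigargin at 8 h against 6.47. The 6 oligodendrocyte lineage markers summed to 4577 to 7326 CPM in every library outside thapsigargin 8 h, where they summed to 2731 to 3081. Microglia and macrophage markers summed to at most 4.37 CPM, endothelial and mural markers to at most 19.99 CPM and fibroblast markers to at most 10.1 CPM. With IFN-gamma at 8 h 1 gene of each of the last 2 lists was higher, Acta2 at 9.19 against 0.259 CPM and Lum at 4.82 against 0.162 CPM. Both were also higher at 24 and 48 h. Kdr, of the endothelial and mural list, went the other way at 8 h (4.05 against 7.41 CPM) and was also lower at 24 and 48 h. The microglia marker P2ry12 was higher at 8 h (3.51 against 1.4 CPM) but not at 24 or 48 h. Thapsigargin at 8 h also raised P2ry12 (2.08 against 1.4 CPM), Pecam1 (0.698 against 0.185 CPM) and Rgs5 (0.699 against 0.174 CPM). It lowered Acta2 (0.0414 against 0.259 CPM). The part of these genes in the results was not tested. In bulk RNA, fewer cells of a type and less RNA per cell cannot be told apart, here or in any result that follows.

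**Figure D1:**
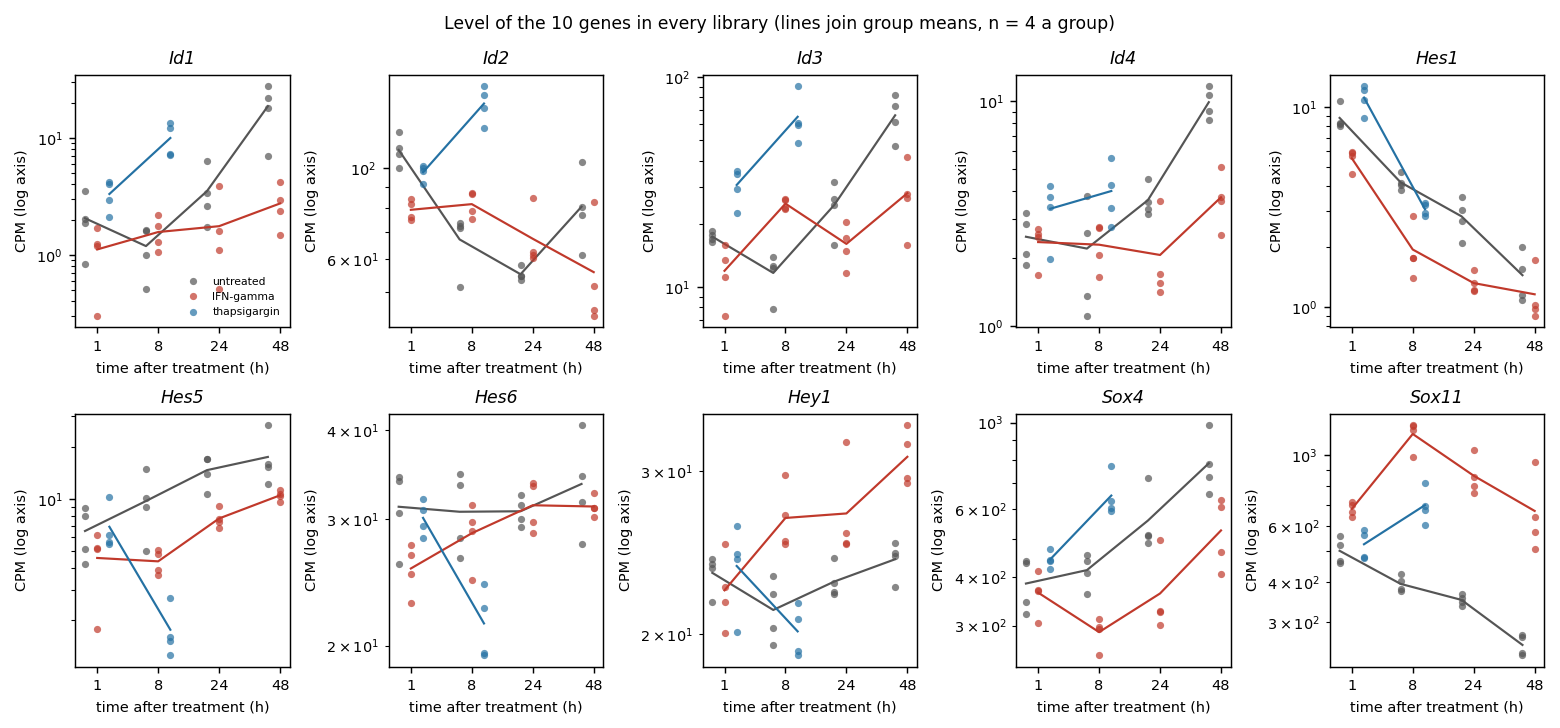
CPM of each of the 10 genes (log axis, its own scale per gene) against time after treatment, with 1 point per library and lines through group means, 4 libraries a group; grey is untreated, red IFN-gamma and blue thapsigargin. Untreated Id1 climbed from a mean of 2.05 CPM at 1 h to 18.6 at 48 h, IFN-gamma Sox11 peaked at 1166 CPM at 8 h, and thapsigargin Hes5 fell to 1.76 CPM at 8 h.

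The genes did not move as 1 block. In untreated cells Id1, Id3, Id4, Hes5 and Sox4 rose by 48 h while Hes1, Sox11 and Id2 fell. IFN-gamma left all 4 Id genes and Hes5 and Sox4 below untreated cells at 48 h, and Sox11 and Hey1 above them. Thapsigargin raised all 4 Id genes and both SoxC genes at 8 h and lowered Hes1, Hes5 and Hes6. A gene was called when its Benjamini-Hochberg adjusted p in edgeR's quasi-likelihood test over all tested genes was under 0.05, and the counts are set beside the shares of all 15135 genes called higher and lower.

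Along the untreated time course, 0 of the 10 genes were higher and 2 lower at 8 h than at 1 h, when 4.77% of all genes were higher and 2.16% lower. At 24 h against 1 h, 2 were higher and 3 lower, with 13.9% and 14.4% of all genes. At 48 h against 1 h, 5 were higher and 3 lower, with 31.9% and 30.4% of all genes. The median log2 fold change of the 10 at 48 h was 0.56, with -0.004 over all genes. These 3 comparisons share the untreated 1 h libraries.

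With IFN-gamma at 1 h, 0 of the 10 were higher and 1 was lower than untreated cells, with 1.08% and 0.211% of all genes. At 8 h, 3 were higher and 3 lower, with 13.1% and 12.1% of all genes. At 24 h, 2 were higher and 3 lower, with 12.6% and 10.5% of all genes, and at 48 h, 2 were higher and 6 lower, with 16.9% and 19.9% of all genes. The 10 genes had a median log2 fold change of -0.55 at 48 h, where all genes had -0.002. Of the 5 calls at 24 h, 3 were left without the 10 libraries low in Y-linked genes, as Hes5 (-0.80, adjusted p = 0.138) and Sox4 (-0.43, adjusted p = 0.138) no longer passed. Leaving those libraries out also ended the calls of Hes1 with IFN-gamma at 1 h (adjusted p = 0.387), Hes5 with IFN-gamma at 48 h (0.0937), Id4 with thapsigargin at 8 h (0.0983) and, between the treatments at 8 h, Id4 (0.262) and Hes1 (0.0881). Among changes in the IFN-gamma effect it ended those of Hey1 from 1 to 8 h (0.0994) and Id4 from 8 to 48 h (0.131).

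With thapsigargin at 1 h, 1 of the 10 was higher and 0 lower than untreated cells, with 6.61% and 2.18% of all genes. At 8 h, 6 were higher and 3 lower, with 29.6% and 31% of all genes, so that only Hey1 was not called; the median of the 10 was 0.71, with -0.012 over all genes. IFN-gamma and thapsigargin share their untreated libraries at each hour. Compared with each other, IFN-gamma cells had 0 genes higher and 2 lower than thapsigargin cells at 1 h, with 1.72% and 4.36% of all genes, and 4 higher and 6 lower at 8 h, with 31.5% and 29.9% of all genes. At 8 h Hes5, Hes6, Hey1 and Sox11 were higher with IFN-gamma, and Hes1, Sox4 and all 4 Id genes higher with thapsigargin.

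**Figure D2:**
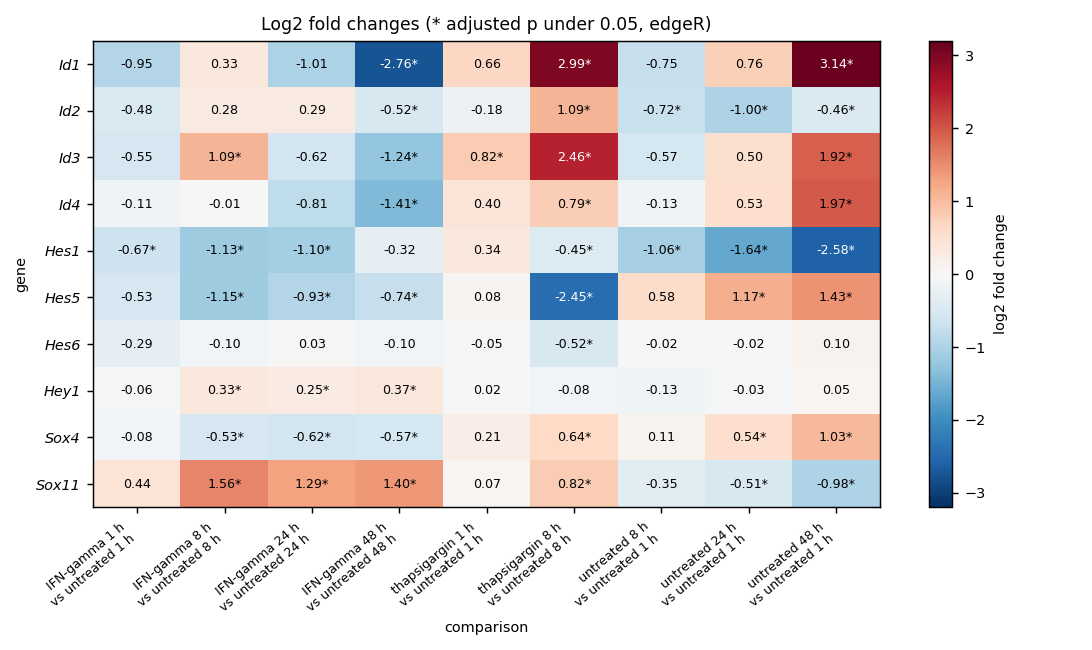
Log2 fold change of the 10 genes (rows) in 9 comparisons (columns), red for higher and blue for lower, with an asterisk where edgeR's adjusted p was under 0.05. The Id rows are blue for IFN-gamma at 48 h (-0.52 to -2.76) and red for thapsigargin at 8 h (0.79 to 2.99), and the Sox11 row is red under both treatments at 8 h.

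Effects also differed between times when the difference itself was tested. The IFN-gamma effect at 8 h exceeded that at 1 h for 4 of the 10 genes and fell short of it for 0, with 7.39% and 4.99% of all genes. From 8 to 48 h it increased for 0 and decreased for 4, with 7.2% and 9.83% of all genes, and those 4 were the Id genes. The thapsigargin effect at 8 h exceeded that at 1 h for 4 genes and was below it for 3, with 22.7% and 24.8% of all genes.

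Id1 (ENSMUSG00000042745.9) had the widest swing of the Id genes. In untreated cells its level was 2.03, 3.49, 1.86 and 0.842 CPM at 1 h and 18, 7.01, 27.7 and 21.8 CPM at 48 h, so that every library at 48 h was above every one at 1 h. The log2 fold change was 3.14 (SE 0.46, adjusted p = 4.52e-07 by edgeR). With IFN-gamma at 48 h the 4 libraries held 1.48, 2.95, 4.22 and 2.35 CPM, all below the untreated ones. The log2 difference of -2.76 made them 6.77-fold lower (SE 0.45, adjusted p = 7.80e-06). With thapsigargin at 8 h they held 7.18, 12.1, 13.3 and 7.28 CPM against 1.6, 1.64, 0.516 and 0.999 untreated, with no overlap and a log2 rise of 2.99 (SE 0.50, adjusted p = 3.19e-06). Id1 read counts went as low as 7 in a library, so its lower levels are imprecise.

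Id3 (ENSMUSG00000007872.3) was the only Id gene called higher with IFN-gamma at any time. At 8 h the IFN-gamma libraries held 26.3, 26.1, 23.5 and 23.9 CPM and the untreated ones 13.9, 12.3, 7.88 and 12.6 CPM, without overlap (log2 fold change 1.09, SE 0.25, adjusted p = 9.98e-04). At 48 h the order had turned. IFN-gamma libraries held 15.8, 26.6, 41.8 and 27.7 CPM and untreated ones 72.9, 46.7, 82.3 and 61 CPM (log2 fold change -1.24, SE 0.24, adjusted p = 8.30e-05). The change in effect from 8 to 48 h was -2.32 on the log2 scale (SE 0.34, adjusted p = 2.02e-05). Thapsigargin raised Id3 at both times, to 29.4, 22.6, 35.8 and 34.7 CPM at 1 h and to 48.5, 60.3, 90.6 and 59.2 CPM at 8 h. The 1 h libraries lay above the untreated range of 16.3 to 18.5 CPM (log2 fold change 0.82, adjusted p = 0.0275), but leaving out 1 of 6 of the 8 libraries raised the adjusted p over the threshold. It was 0.053 to 0.0697 without any 1 of the untreated libraries, 0.0983 without thapsigargin replicate 3 and 0.0961 without replicate 4. The 8 h rise was 2.46 (SE 0.25, adjusted p = 1.87e-10).

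Id4 (ENSMUSG00000021379.1) was low throughout. It held 2.85, 3.17, 2.1 and 1.86 CPM in untreated cells at 1 h and 10.7, 8.23, 11.7 and 9.02 CPM at 48 h, its only group well above the rest (log2 fold change 1.97, SE 0.29, adjusted p = 4.49e-07). IFN-gamma libraries at 48 h held 2.54, 5.08, 3.74 and 3.6 CPM, below all untreated ones (log2 fold change -1.41, SE 0.28, adjusted p = 1.37e-04). Its thapsigargin rise at 8 h, from a mean of 2.21 to 3.99 CPM, rested on overlapping groups (log2 fold change 0.79, adjusted p = 0.0244). It did not pass without thapsigargin replicate 2 (adjusted p = 0.114), untreated replicate 3 (0.0889) or untreated replicate 4 (0.0787). The difference from IFN-gamma at 8 h, -0.80 (adjusted p = 0.0239), was likewise lost without thapsigargin replicate 2 (0.128), IFN-gamma replicate 3 (0.0856) or IFN-gamma replicate 4 (0.0572).

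Id2 (ENSMUSG00000020644.8) ran a different course. Untreated libraries fell from 122, 112, 108 and 100.1 CPM at 1 h to 58, 54.5, 54.7 and 53.3 CPM at 24 h (2-fold lower, adjusted p = 8.31e-06). They then held 76.8, 61.4, 103 and 80.5 CPM at 48 h, overlapping those of 1 h (log2 fold change -0.46, adjusted p = 0.00574, and 0.0526 without untreated 48 h replicate 2). Thapsigargin libraries at 8 h held 150.2, 158, 139.8 and 125 CPM, above the untreated 72.1, 73.4, 71.2 and 51.2 CPM (log2 fold change 1.09, SE 0.14, adjusted p = 4.79e-08). IFN-gamma libraries held 74.7 to 84 CPM at 1 h, below the untreated ones. They lay above the untreated ones at 8 h, with 75.1 to 86.6 CPM, and at 24 h, with 60.5 to 84.4 against 53.3 to 58 CPM. None of these 3 differences was called, though the groups did not overlap. With IFN-gamma at 48 h, 3 libraries held 43.7, 45.1 and 51.6 CPM and replicate 1 held 82.7 CPM, inside the untreated range. The decrease of 0.52 there (adjusted p = 0.00449) did not pass when only the compared groups were fitted (0.146).

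In the order of group means, Id1, Id3 and Id4 were highest in untreated cells at 48 h and Id2 was highest with thapsigargin at 8 h. Of the 9 steps between neighbouring groups in that order, libraries were fully separated at 1 step each for Id1, Id3 and Id4 and at 2 for Id2. For Id1 and Id3 untreated 48 h and thapsigargin 8 h stood above all other groups and overlapped each other. Per kb of exon, the mean level over the 40 libraries was 34.3 CPM per kb for Id2, 16.5 for Id3, 3.95 for Id1 and 0.937 for Id4.

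RefSeq promoter windows (GRCm38.p6) matched 7 of the 10 genes, and the 250 bases before the annotated start were searched on both strands for short motifs. They are shown for 3 Id genes because Id genes are known BMP targets and 2 of these windows hold the GC-rich core GGCGCC found in BMP-responsive elements. That core is in 9.59% of all 32851 windows of this length. Capitals mark GGCGCC and, in Id4, a match on the other strand to CACNAG, the N-box bound by Hes proteins (in 36.7% of windows); a match is a string of letters, not a shown binding site. Id2 lies on the minus strand at chr12:25096093-25096342, Id3 on the plus strand at chr4:136143572-136143821 and Id4 on the plus strand at chr13:48260866-48261115, each printed 5′ to 3′.
Id2: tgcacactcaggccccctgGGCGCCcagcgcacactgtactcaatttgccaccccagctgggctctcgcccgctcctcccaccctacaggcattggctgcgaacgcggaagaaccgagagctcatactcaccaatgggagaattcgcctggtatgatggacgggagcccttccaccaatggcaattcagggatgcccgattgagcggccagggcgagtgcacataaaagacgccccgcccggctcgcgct
Id3: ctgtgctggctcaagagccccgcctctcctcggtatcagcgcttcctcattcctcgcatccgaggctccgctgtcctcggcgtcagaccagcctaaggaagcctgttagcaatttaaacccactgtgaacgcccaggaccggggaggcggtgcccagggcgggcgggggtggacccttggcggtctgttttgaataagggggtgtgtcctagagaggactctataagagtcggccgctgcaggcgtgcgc
Id4: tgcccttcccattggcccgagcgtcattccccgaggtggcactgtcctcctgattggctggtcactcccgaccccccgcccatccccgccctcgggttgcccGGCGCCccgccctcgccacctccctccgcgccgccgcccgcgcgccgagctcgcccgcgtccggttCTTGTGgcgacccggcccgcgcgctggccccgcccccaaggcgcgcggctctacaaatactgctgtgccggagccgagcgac
Id2 has 1 GGCGCC starting 231 bases before its start, Id4 has 1 at 148 bases and the N-box match at 82 bases, and Id3 has no match to any of the motifs named here. GTGGGAA (5.42% of windows, the core bound by RBPJ) and TGACGTCA (1.55%, the cAMP response element) were in none of the 3.

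**Figure D3:**
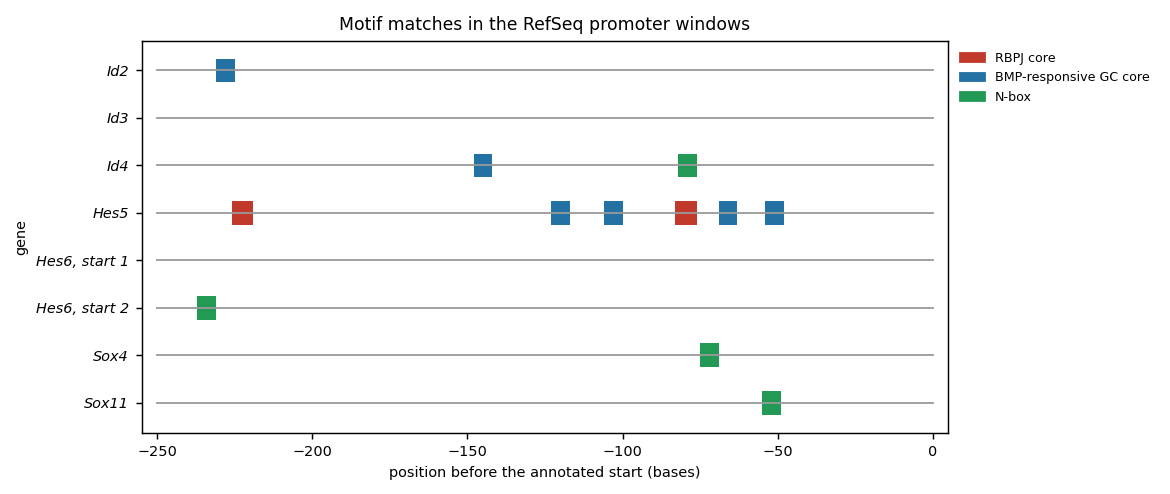
Positions of motif matches in the 250 bases before the RefSeq start of 7 of the 10 genes (8 windows, since Hes6 has 2 starts), with the start at the right edge; colours name the motif. Hes5 holds 6 matches, Id4 holds 2, and the windows of Id3 and of the first Hes6 start hold none.

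Genes of the BMP and TGF-beta pathway changed as well, 23 of the 27 listed having enough reads to test. In untreated cells at 48 h against 1 h, 12 rose and 4 fell (list median 0.18), with 31.9% and 30.4% of all genes. Among them were the ligand gene Bmp4, from 1.52 to 33.4 CPM (log2 fold change 4.48, SE 0.57, adjusted p = 3.99e-08), and the feedback inhibitor gene Smad7, from 4.99 to 31.8 CPM (2.67, SE 0.28, adjusted p = 1.69e-09). With IFN-gamma at 48 h, 2 rose and 6 fell (median 0.04), with 16.9% and 19.9% of all genes. Smad7 was at 13.9 CPM there (-1.19, adjusted p = 3.66e-04), the SMAD gene Smad9 at 1.28 against 3.44 CPM (-1.40, adjusted p = 2.39e-05), the ligand gene Tgfb2 at 3.2 against 18.9 CPM (-2.58, adjusted p = 1.15e-08) and Nog, a secreted BMP antagonist, at 0.682 against 2.96 CPM (-2.07, adjusted p = 9.38e-05).

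Earlier in the IFN-gamma course 10 were higher and 3 lower at 8 h (median 0.18), with 13.1% and 12.1% of all genes, and 7 higher and 3 lower at 24 h (median 0.12), with 12.6% and 10.5% of all genes. At 8 h Smad7 was higher (13.5 against 4.63 CPM, log2 fold change 1.56, adjusted p = 4.59e-05), as were Bmp2 (1.66 against 0.184 CPM, 3.21, adjusted p = 2.21e-06) and Fst, which codes for the TGF-beta family antagonist follistatin (1.09 against 0.0309 CPM, 4.96, adjusted p = 1.22e-05). Bmp4 was lower at 24 h, at 1.38 against 14.9 CPM (-3.44, SE 0.56, adjusted p = 1.38e-05). Thapsigargin at 8 h raised 13 and lowered 5 (median 0.40), with 29.6% and 31% of all genes. Bmp2 reached 12.9 CPM from 0.184 (6.17, SE 0.41, adjusted p = 4.06e-15), 6 of 8 receptor genes and 3 of 4 SMAD genes were higher, and Bmp7 fell from 338 to 112 CPM (-1.59, adjusted p = 3.06e-10). At 1 h thapsigargin raised 2 and lowered 0 (median 0.10), with 6.61% and 2.18% of all genes, Bmp2 again among them (2.31 against 0.56 CPM, 1.99, adjusted p = 2.48e-04).

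Markers of astrocytes, cells in which BMP and Id genes are also active, moved in some of the same comparisons. Of 9 such markers 7 rose and 1 fell in untreated cells at 48 h, with 31.9% and 30.4% of all genes. Gfap went from 5.77 to 48.6 CPM and Aqp4 from 2.16 to 24.1 CPM. With IFN-gamma at 48 h 2 were higher and 3 lower, with 16.9% and 19.9% of all genes, Gfap at 25.4 and Aqp4 at 10.7 CPM. The summed level of the 9 markers was 309.5 to 382 CPM in untreated libraries at 1 h, 369 to 468 at 48 h and 416 to 477 with IFN-gamma at 48 h. With IFN-gamma at 8 h, when Id3 alone of the Id genes was higher, it was 437 to 499 CPM. There 1 marker was higher (Slc1a3, at 229 against 112 CPM) and 1 lower, with 13.1% and 12.1% of all genes. At 24 h the sum was 478 to 536 CPM against 297 to 354 untreated, with 2 markers higher and 2 lower (12.6% and 10.5% of all genes). With thapsigargin at 8 h, where the Id genes rose, it was 222 to 263 CPM against 301 to 399 untreated. There 0 markers were higher and 2 lower, with 29.6% and 31% of all genes. The part of astrocyte-like RNA in the Id results was not tested.

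Among the repressor genes, Hes1 (ENSMUSG00000022528.7) fell steadily in untreated cells. Its libraries held 8.29, 8.2, 10.7 and 8 CPM at 1 h, 4.71, 4.17, 4.05 and 3.85 at 8 h, 3.53, 3.05, 2.68 and 2.08 at 24 h and 1.15, 1.99, 1.54 and 1.08 at 48 h. No library of one time overlapped the next (log2 fold change at 48 h -2.58, SE 0.19, adjusted p = 1.46e-11). IFN-gamma cells were lower at 8 h, with 1.75, 1.4, 1.76 and 2.83 CPM (log2 fold change -1.13, SE 0.20, adjusted p = 2.21e-05), and at 24 h, with 1.53, 1.31, 1.22 and 1.2 CPM (-1.10, SE 0.21, adjusted p = 9.37e-05). At 48 h, when untreated cells had themselves come down, the groups overlapped (-0.32, SE 0.23, adjusted p = 0.285).

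The 1 h difference for Hes1 was less secure. IFN-gamma libraries held 5.68, 5.93, 4.62 and 5.9 CPM, below all untreated ones (log2 fold change -0.67, SE 0.17, adjusted p = 0.0291). It did not pass without untreated replicate 1 (0.0568), 2 (0.0506) or 3 (0.195), without IFN-gamma replicate 1 (0.074) or 3 (0.132), or without the libraries low in Y-linked genes (0.387); the direction held, and the value was -0.70 without the library rich in ribosomal RNA. Thapsigargin libraries held 10.8, 8.77, 12.2 and 12.7 CPM at 1 h, overlapping untreated cells (0.34, adjusted p = 0.219). At 8 h they held 2.83, 3.31, 3.22 and 2.95 CPM, under the untreated range (-0.45, adjusted p = 0.0345), a call that was lost when any of 7 of the 8 libraries was left out (adjusted p 0.0516 to 0.117), the exception being untreated replicate 4.

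Hes5 (ENSMUSG00000048001.7), another Notch target, went the opposite way in untreated cells. It rose from 4.19, 7.92, 5.16 and 8.84 CPM at 1 h to 15.8, 26.5, 15.2 and 12.2 CPM at 48 h, without overlap (log2 fold change 1.43, SE 0.29, adjusted p = 5.37e-05). Its largest change was with thapsigargin at 8 h, to 1.26, 2.67, 1.61 and 1.51 CPM from 10.1, 8.93, 5.01 and 14.8 untreated (-2.45, SE 0.34, 5.46-fold lower, adjusted p = 1.06e-07). At 1 h thapsigargin and untreated libraries overlapped, and the effect differed between 8 and 1 h by -2.53 (SE 0.45, adjusted p = 1.62e-05).

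IFN-gamma kept Hes5 below untreated cells from 8 h on. The libraries held 4.83, 3.65, 3.91 and 5.07 CPM at 8 h, the highest just inside the untreated range (log2 fold change -1.15, SE 0.30, adjusted p = 0.00383), and 7.34, 9.04, 6.75 and 7.7 CPM at 24 h against 17, 17, 10.6 and 13.9 (-0.93, SE 0.28, adjusted p = 0.0147). At 48 h they held 11.2, 10.4, 10.7 and 9.61 CPM, below all untreated ones (-0.74, adjusted p = 0.0345). That last value rested in part on untreated replicate 2 (-0.45 without it, adjusted p = 0.204), and leaving out any IFN-gamma library at 48 h gave 0.0523 to 0.0767. In the order of group means every neighbouring pair overlapped but the last, since thapsigargin 8 h stood alone at the bottom.

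The Hes5 window on the plus strand at chr4:154960673-154960922 (GRCm38.p6) is printed because it was the only one of the 8 with the RBPJ core, through which Notch acts. Capitals mark GTGGGAA, once as its reverse complement, and GGCGCC.
Hes5: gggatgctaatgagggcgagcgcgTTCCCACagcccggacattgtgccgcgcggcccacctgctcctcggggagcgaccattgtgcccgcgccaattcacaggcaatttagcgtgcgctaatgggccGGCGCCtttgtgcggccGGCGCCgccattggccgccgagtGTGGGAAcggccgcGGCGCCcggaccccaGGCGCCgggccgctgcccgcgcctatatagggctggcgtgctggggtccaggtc
It holds 2 RBPJ cores, starting 226 and 83 bases before the start, and 4 GGCGCC, at 123, 106, 69 and 54 bases. Its GC content is 71.6%. TGACGTCA and CACNAG have no match here. The windows of Sox4, Sox11 and the second Hes6 start each hold 1 N-box and no other motif named here.

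Hes6 (ENSMUSG00000067071.8) was nearly level. Group means lay between 28.7 and 33.6 CPM in 8 groups and at 25.7 CPM with IFN-gamma at 1 h, and every pair of neighbours in that order overlapped. Thapsigargin at 8 h was the only group with a call against untreated cells, at 22.6, 24.4, 19.5 and 19.4 CPM against 34.7, 33.5, 28.3 and 26.5 (log2 fold change -0.52, SE 0.10, adjusted p = 4.51e-05). In the isoform table the coding transcript Hes6-201 held 82.1% of the gene's estimated reads and the intron-retaining Hes6-202 15.7%, the latter ranging over groups from 9.97% with IFN-gamma at 1 h to 21.7% with thapsigargin at 8 h.

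Hey1 (ENSMUSG00000040289.8) did not change by a called amount over untreated time or with thapsigargin, and IFN-gamma raised it slightly. At 48 h it held 33.6, 32.1, 29.1 and 29.5 CPM against 24.5, 25.1, 22.5 and 24.3 untreated, without overlap (log2 fold change 0.37, SE 0.08, adjusted p = 5.55e-04). At 8 h it held 26.9, 29.7, 25 and 25.2 CPM against 22.1, 23.1, 20.3 and 19.5 (0.33, SE 0.08, adjusted p = 0.0028). At 24 h the value of 0.25 (adjusted p = 0.0263) leaned on IFN-gamma replicate 2 at 32.2 CPM, and was 0.14 without it (adjusted p = 0.206). It also missed the threshold without untreated 24 h replicate 2 (0.0566), 3 (0.068) or 4 (0.0675).

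Other Notch genes, of which 27 of 29 listed were tested, moved in both directions. In untreated cells at 48 h 9 rose and 4 fell (list median 0.21), with 31.9% and 30.4% of all genes. The 9 of 27 that rose are near the share of all genes, and the 4 of 27 that fell are below it. IFN-gamma raised 5 and lowered 4 at 8 h (median 0.01; 13.1% and 12.1% of all genes), raised 4 and lowered 4 at 24 h (median 0.02; 12.6% and 10.5%), and raised 4 and lowered 9 at 48 h (median -0.14; 16.9% and 19.9%). The ligand gene Jag1 was lower each time, at 8.45 against 20.6 CPM (log2 fold change -1.28, SE 0.09, adjusted p = 1.10e-13), 9.3 against 23.3 (-1.32, SE 0.09, adjusted p = 2.30e-14) and 10.1 against 27.8 (-1.46, SE 0.09, adjusted p = 1.36e-15). Dtx4, of the Deltex family of ubiquitin ligases that act on Notch, was higher at 48 h, at 53.4 against 28.6 CPM (0.90, SE 0.13, adjusted p = 1.28e-06), and Nrarp, a Notch target and feedback inhibitor, was lower at 48 h, at 2.68 against 5.24 CPM (-0.95, adjusted p = 0.00959).

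Thapsigargin at 8 h raised 7 Notch genes and lowered 10 (median -0.09), counts near the shares of all genes, 29.6% and 31%. The ligand gene Dll3, at 6.88 against 37.1 CPM (-2.43, adjusted p = 1.06e-08), and Mfng, which codes for a glycosyltransferase of Notch receptors, at 1.92 against 6.41 CPM (-1.75, adjusted p = 7.88e-09), fell in the libraries in which Hes5 fell. The coactivator gene Maml2 did too (42.2 against 105 CPM, -1.31, adjusted p = 3.86e-10). Hey2, a close relative of Hey1, rose to 19.6 from 4.47 CPM (2.13, SE 0.24, adjusted p = 1.10e-09) and already stood at 9.2 against 4.82 CPM at 1 h (0.94, adjusted p = 0.00764). With IFN-gamma Hey2 was lower at 8, 24 and 48 h (-0.86, -0.76 and -0.60, adjusted p = 0.0141, 0.0247 and 0.0398), the opposite direction to Hey1.

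**Figure D4:**
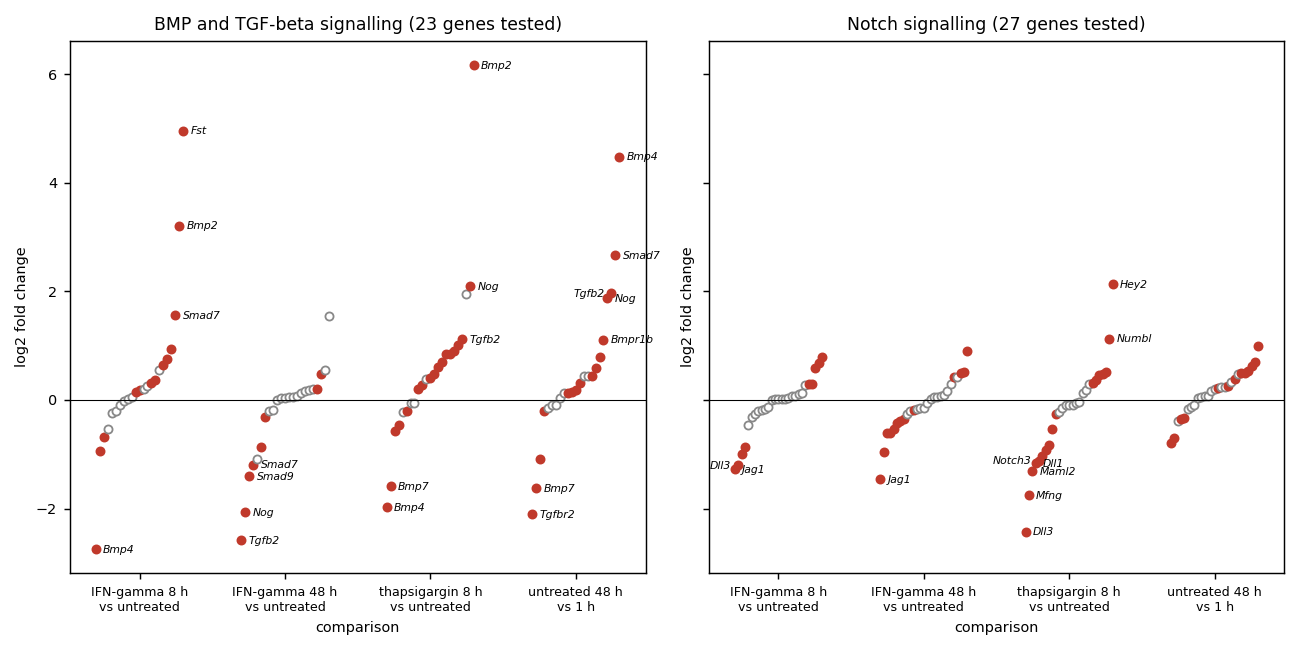
Log2 fold change (vertical axis) of every tested BMP and TGF-beta gene (left, 23 genes) and Notch gene (right, 27 genes) in 4 comparisons, each ordered from lowest to highest; filled points had an edgeR adjusted p under 0.05. The highest points are Bmp2 under thapsigargin (6.17), Fst under IFN-gamma at 8 h (4.96) and Bmp4 in untreated cells at 48 h (4.48), and Dll3 (-2.43) and Hey2 (2.13) mark the ends of the Notch list under thapsigargin.

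The partners of these regulators were also measured. Of 9 E protein and lineage bHLH genes, 2 rose and 5 fell in untreated cells by 48 h (list median -0.50), with 31.9% and 30.4% of all genes, Olig1 from 1522 to 694 CPM and Olig2 from 873 to 546 CPM (log2 fold changes -1.13 and -0.68, adjusted p = 8.66e-07 and 2.64e-05). With IFN-gamma at 48 h 4 were higher and 2 lower (median 0.08), with 16.9% and 19.9% of all genes, Olig1 at 1229.9 CPM (0.83, adjusted p = 2.35e-04). Thapsigargin at 8 h raised 2 and lowered 4 (median -0.28), with 29.6% and 31% of all genes. There Olig1 fell from 1206 to 312 CPM (-1.95, adjusted p = 9.33e-12), while the E protein genes Tcf4, at 712 against 423 CPM (0.75, adjusted p = 4.59e-10), and Tcf12, at 1029 against 620.1 CPM (0.73, adjusted p = 3.05e-13), rose. Of 5 TLE-family genes tested 0 rose and 3 fell with thapsigargin at 8 h (median -0.78), with the same 29.6% and 31% of all genes, Tle3 from 66.2 to 18.3 CPM (-1.85, SE 0.08, adjusted p = 4.39e-20). IFN-gamma cells at 48 h had higher Tle3 and Tle2 (0.50 and 0.41, adjusted p = 4.23e-06 and 0.0174) and none lower, with 16.9% and 19.9% of all genes. At 8 h with IFN-gamma Tle3 was higher (0.24, adjusted p = 0.0237), with 13.1% of all genes. Tle2 and Aes were lower there (-0.58 and -0.24, adjusted p = 0.00172 and 0.00438), with 12.1% of all genes. At 24 h Tle3 was higher (0.44, adjusted p = 5.16e-05) and Tle4 lower (-0.53, adjusted p = 0.00404), with 12.6% and 10.5% of all genes.

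The SoxC genes parted from each other. Per kb of exon they were the most abundant of the 10 genes, at means of 99.8 CPM per kb for Sox4 and 73.4 for Sox11 over all libraries. Sox11 (ENSMUSG00000063632.6) declined in untreated cells from 524, 558, 465 and 458 CPM at 1 h to 239.6, 272, 268 and 236 CPM at 48 h, without overlap (log2 fold change -0.98, SE 0.12, adjusted p = 3.87e-08). Under IFN-gamma it rose instead, to 1201, 1241, 1231 and 990.3 CPM at 8 h against 379.9, 402, 423 and 374 untreated. Every IFN-gamma library was above every untreated one (1.56, SE 0.13, 2.95-fold, adjusted p = 1.47e-12).

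The Sox11 difference lasted. At 24 h IFN-gamma libraries held 1036, 856, 798 and 759 CPM against 357, 367, 346 and 336 (log2 fold change 1.29, SE 0.12, adjusted p = 1.95e-10), and at 48 h 949, 641, 508 and 576 CPM (1.40, SE 0.13, adjusted p = 2.95e-11). At 1 h all 4 IFN-gamma libraries, at 639, 663, 698 and 713 CPM, already lay above the untreated ones, but the value of 0.44 did not pass (SE 0.12, adjusted p = 0.0741). Thapsigargin at 8 h gave 691, 820.2, 605 and 672 CPM, a smaller rise (0.82, SE 0.12, adjusted p = 5.51e-07), and IFN-gamma exceeded it by 0.74 at that hour (SE 0.12, adjusted p = 2.88e-06). The 3 lowest groups in order, untreated 8, 24 and 48 h, were each separated from the next.

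Sox11 is also a gene of young neurons, and neuronal markers moved with it in part. The 9 listed markers summed to 144 to 175 CPM in untreated libraries at 8 h and 415 to 464 CPM with IFN-gamma. There 3 of 8 tested were higher and 0 lower, with 13.1% and 12.1% of all genes. Most of the IFN-gamma sum was Tubb3, at 294 against 47.5 CPM (log2 fold change 2.63, adjusted p = 4.71e-18). Syt1 (22.8 against 10.4 CPM, 1.12, adjusted p = 1.22e-05) and Nefm (13.8 against 7.75 CPM, 0.85, adjusted p = 2.30e-04) were higher too, whereas Rbfox3, which marks mature neurons, stayed at 0.63 against 0.395 CPM (0.55, adjusted p = 0.439) and Snap25 at 5.7 against 6.12 CPM (-0.10, adjusted p = 0.691). Dcx, Nefl and Gad1 were not called at 8 h either (0.36, 0.14 and 0.98, adjusted p = 0.202, 0.577 and 0.19). Dcx was also not called with IFN-gamma at 24 or 48 h (-0.09 and -0.03, adjusted p = 0.79 and 0.912). With IFN-gamma at 48 h 3 were higher and 0 lower, with 16.9% and 19.9% of all genes. With thapsigargin at 8 h 5 were higher and 2 lower, with 29.6% and 31% of all genes. Tubb3, Snap25, Nefm, Nefl and Gad1 were the higher ones. Syt1 (-0.50, adjusted p = 0.0265) and Dcx (42 against 75.9 CPM, -0.85, adjusted p = 4.46e-04) were the lower ones. In untreated cells, where Sox11 fell, the marker sum was 129 to 159 CPM at 1 h and 221 to 286 CPM at 48 h. Dcx and Tubb3 were higher at 48 h than at 1 h, and Snap25, Syt1, Nefm and Nefl were lower. The part of neuronal RNA in the Sox11 result was not tested.

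Sox4 (ENSMUSG00000076431.4) rose in untreated cells from 434, 440.3, 321 and 345 CPM at 1 h to 724, 654, 984 and 780.3 CPM at 48 h (log2 fold change 1.03, SE 0.15, adjusted p = 5.77e-07), with no overlap. The 24 h rise of 0.54 (adjusted p = 0.00876) was 0.41 without untreated replicate 4, which held 722 CPM (adjusted p = 0.068). IFN-gamma libraries were lower, at 294, 312, 297 and 252 CPM at 8 h against 411, 439, 363 and 455 (-0.53, SE 0.15, adjusted p = 0.008, and -0.44, adjusted p = 0.0524, without IFN-gamma replicate 4), and at 408, 630.4, 607 and 465 CPM at 48 h, below all untreated libraries (-0.57, SE 0.15, adjusted p = 0.00295). At 24 h they held 326, 498, 300.3 and 328 CPM against 511, 515, 489 and 722, with replicate 2 inside the untreated range (-0.62, SE 0.15, adjusted p = 0.00221). Thapsigargin at 8 h gave 628, 773, 593 and 601 CPM, above all untreated ones (0.64, SE 0.15, adjusted p = 4.52e-04).

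Other SOX genes did not follow 1 direction. With thapsigargin at 8 h 2 of 10 rose and 7 fell (list median -0.91), with 29.6% and 31% of all genes. Sox9, a gene of early glial cells, fell from 90.6 to 11.2 CPM (log2 fold change -3.00, SE 0.41, adjusted p = 1.03e-07) and Sox8 from 227 to 73.9 CPM (-1.62, adjusted p = 7.64e-08). With IFN-gamma at 48 h 2 rose and 2 fell (median -0.25), with 16.9% and 19.9% of all genes, Sox9 at 58.6 against 16.3 CPM (1.82, adjusted p = 3.77e-04) and Sox3 at 45.1 against 18.1 CPM (1.31, adjusted p = 3.82e-07) being higher.

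The rises of Id1, Id3, Id4, Hes5 and Sox4 in untreated cells came alongside the maturation program. All 15 tested myelin and maturation genes rose by 48 h (median log2 fold change 3.12), with 31.9% of all genes, Mbp, which codes for myelin basic protein, from 46.7 to 1802 CPM (5.27, SE 0.68, adjusted p = 5.77e-08). With IFN-gamma at 48 h, where Id1, Id3, Id4, Hes5 and Sox4 were lower, all 15 were lower too (median -1.94), with 19.9% of all genes, Mbp at 236 CPM (-2.93, adjusted p = 2.41e-04). Libraries spread widely, and the summed level of the 16 listed genes overlapped between these groups. It was 5781 to 21776 CPM in untreated libraries at 48 h and 1655 to 7913 CPM with IFN-gamma. At 8 h IFN-gamma raised 1 and lowered 3 (median -0.89), with 13.1% and 12.1% of all genes. Thapsigargin at 8 h raised 0 and lowered 5 (median -0.64), with 29.6% and 31% of all genes.

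Over the 10 group means of log2 CPM, a description only, Id1 ran closest to Id3 (Pearson r 0.95) and Id4 (0.91) among the 10 genes. Sox4 followed Id1 (0.89) and Id4 (0.88), Hes5 correlated with Hes6 (0.91), and Sox4 and Sox11 ran opposite to each other (-0.70). Group means of Hes6 spanned only 0.64 log2 units against 3.22 for Hes5, and both genes were lowest with thapsigargin at 8 h. Among all genes with enough level and range, the pattern most like Id1 was that of Spata2 (0.967), like Id2 that of Rarb (0.92), like Id4 that of Rffl (0.971), like Hes1 that of Piezo1 (0.939) and like Hes5 that of Kctd4 (0.985). Arvcf was most like Hes6 (0.97), Syt9 most like Hey1 (0.96), Elfn2 most like Sox4 (0.992) and Efnb2 most like Sox11 (0.989), while for Id3 it was Id1 itself.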

How the data were processed

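Total RNA for 40 libraries was sequenced on an Illumina HiSeq instrument, per the labels' protocols. The authors deposited a gene table of raw read counts and an isoform table of estimated counts, which need not be whole. Per the submitters' processing notes the tools included kallisto, STAR, edgeR and featureCounts, without versions or roles. Build, annotation and strandedness: not given in the sources used here. Gene names came from GENCODE M21 by gene identifier (38872 of 39056), and promoter windows and coordinates from RefSeq.

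Genes with low counts were removed (filterByExpr by group), counts were scaled by TMM, and edgeR 4.0.16 (glmQLFit, glmQLFTest) in R 4.3.3 fitted 1 mean per group over the 40 libraries, with 30 residual degrees of freedom. Adjusted p-values are Benjamini-Hochberg over 15135 genes. Log2 fold changes use a prior count, and SE is the change over the root of the F statistic. Likeness used Pearson's r over group means of log2 CPM. The script was tested on simulated data. Depth was 13165483 to 22651092 reads on genes, so a gene near 1 CPM rests on few reads.

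Alternatives were DESeq2 1.42.0, other size factors, no filter, only the groups compared, a block for library number, each number range, the isoform table summed and rounded, Y-linked level, and leaving out each library. Named genes were the 10, up to 4 called genes of each list per comparison with the largest change, and for each of the 10 the genes with the most similar group means. The members and lists were chosen with earlier results of these data known. Replicate numbers follow deposit order and were not used as pairs. The result for 1 searched motif is not reported here.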

Additional observations from a re-analysis of the deposited data

Results flagged for a closer look

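In 10 of the 100 gene-by-group sets of 4 libraries, 1 library lay far from the other 3 by Dixon's 95% criterion, which chance alone meets in about 1 in 20 such sets. Id2 was low in untreated 8 h replicate 4 (51.2 CPM, the others 71.2 to 73.4) and high in IFN-gamma 24 h replicate 1 (84.4 CPM, the others 60.5 to 62.5). IFN-gamma 24 h replicate 2 was high for Id4 (3.61 CPM, the others 1.41 to 1.7), Hey1 (32.2 CPM, the others 25 to 25.7) and Sox4 (498 CPM, the others 300.3 to 328). Hes1 was high in untreated 1 h replicate 3 (10.7 CPM, the others 8 to 8.29) and in IFN-gamma 48 h replicate 1 (1.72 CPM, the others 0.903 to 1.02). Hes5 was high in thapsigargin 1 h replicate 3 (10.3 CPM, the others 5.49 to 6.16), Sox4 in untreated 24 h replicate 4 (722 CPM, the others 489 to 515), and Sox11 was low in IFN-gamma 8 h replicate 4 (990.3 CPM, the others 1201 to 1241).

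The treatment effect differed between times, by edgeR's test of the difference on the log2 scale, for 15 gene and treatment pairs. From 1 to 8 h the IFN-gamma effect increased for Id2 (0.77, adjusted p = 0.00826), Id3 (1.64, adjusted p = 0.00104), Hey1 (0.39, adjusted p = 0.0216) and Sox11 (1.13, adjusted p = 8.61e-06). From 8 to 48 h it changed by -3.09 for Id1 (adjusted p = 0.00344), -0.81 for Id2 (adjusted p = 0.0062), -2.32 for Id3 (adjusted p = 2.02e-05) and -1.40 for Id4 (adjusted p = 0.0207). From 1 to 8 h the thapsigargin effect increased for Id1 (2.33, adjusted p = 0.00601), Id2 (1.27, adjusted p = 3.02e-06), Id3 (1.64, adjusted p = 1.60e-04) and Sox11 (0.75, adjusted p = 5.01e-04). It changed by -0.79 for Hes1 (adjusted p = 0.00816), -2.53 for Hes5 (adjusted p = 1.62e-05) and -0.46 for Hes6 (adjusted p = 0.00767). The Hey1 value did not pass without IFN-gamma 1 h replicate 2 (0.35, adjusted p = 0.0613) or IFN-gamma 8 h replicate 2 (0.35, adjusted p = 0.0548).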

How the results depend on the processing

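Of 72 called values of the 10 genes over 14 comparisons, none changed direction under any alternative. DESeq2 size factors in edgeR lost 0 calls, DESeq2 lost 0 and gained 6, no filter lost 4, fitting only the groups compared lost 6 and gained 10, a block for library-number range lost 0 and gained 3, the isoform table lost 6, Y-linked level as a covariate lost 2 and gained 1, and leaving out the libraries low in Y-linked genes lost 9 and gained 3. Library numbers 1 to 20 alone lost 23 and 21 to 40 alone lost 16 and gained 7, each with 2 libraries a group. Leaving out 1 library lost 38 of 696 and gained 8 of 664 values not called.

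The counts that follow cover the 10 genes alone, without the share of all genes called in the same fit. Whether the other genes moved alike is therefore not shown. The number of the 10 genes called moved in these cases, among others. For IFN-gamma at 1 h (1 called) it was 0 without the filter, with library numbers 1 to 20 or with the isoform table, 3 with DESeq2 or only the groups compared, 2 with the block, and 0 to 1 leaving out 1 library. For thapsigargin at 1 h (1) it was 0 with numbers 1 to 20 and 0 to 1 leaving out 1 library. For IFN-gamma at 24 h (5) it was 3 with numbers 1 to 20 or without the libraries low in Y-linked genes, and at 48 h (8) it was 5 with only the groups compared. For untreated 8 h against 1 h (2) it was 4 with only the groups compared and 0 with numbers 1 to 20, and for 24 h (5) it was 3 with numbers 1 to 20. For IFN-gamma against thapsigargin at 1 h (2) it was 4 with DESeq2, 5 with only the groups compared and 0 with numbers 1 to 20. For the IFN-gamma effect at 8 h minus 1 h (4) it was 2 in either number range, and at 48 h minus 8 h (4) it was 2 with only the groups compared and 1 with numbers 1 to 20. Numbers 1 to 20 also ended the calls of Hes1 and Id4 with thapsigargin at 8 h (edgeR adjusted p = 0.0849 and 0.342). For IFN-gamma they ended those of Hey1 and Sox4 at 8 h (0.0986 and 0.0781) and of Id2 and Sox4 at 48 h (0.739 and 0.162). Those fits held fewer libraries, and the cause of the lost calls was not tested. With the isoform table the Sox4 decreases under IFN-gamma at 8 and 24 h did not pass (adjusted p = 0.2 and 0.114). No paired analysis was possible because the labels give no replicate numbers, and numbers in deposit order were not used as pairs. Low Y-linked levels did recur under the same number, as in IFN-gamma replicate 3 at all 4 times (0.469 to 0.965 CPM). They also recurred in IFN-gamma replicate 1 at 8, 24 and 48 h (5.3 to 6.08 CPM) and in thapsigargin replicate 2 at 1 and 8 h (20.6 and 14.6 CPM). At 1 h IFN-gamma replicate 1 was not low (196 CPM) but replicate 2 was (5.37 CPM). Whether libraries of different times share a source was not tested. Id1, Id4 and Hes1 rest on few reads in some libraries, which limits small differences.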
